A study of Mus musculus with 2 samples.

Results

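Cycling wound fibroblasts are the fibroblasts of healed skin wounds that carried transcripts of the cell division machinery. They were selected by measured values in single cells sorted from the wounds of mice. A cell was kept when at most 10% of its unique molecular identifiers (UMIs, each 1 counted RNA molecule) were mitochondrial. It was taken as a fibroblast when Pdgfra, Lum, Dpt, Lox and Postn together reached 10 per 10000 UMIs and when Pecam1, Sox10, Rgs5 and Ptprc together had at most 2 UMIs. It was taken as cycling when at least 4 of the 8 genes Ube2c, Ccnb1, Cdc20, Birc5, Nusap1, Cdk1, Ccna2 and Top2a had a UMI. By this rule 260 of the 4648 cells kept were cycling fibroblasts, of which 132 were control and 128 SM22-SmoM2 cells, beside 2409 non-cycling fibroblasts.

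The control mice carried SM22rtTA, tetO-Cre and R26-Tomato, and the SM22-SmoM2 mice carried SM22rtTA, tetO-Cre and R26-SmoM2/Tomato. In both, the promoter of SM22 (Tagln), a gene of contractile cells, drove the doxycycline-dependent activator, so that Cre and the alleles it switches on depended on doxycycline and on that promoter. SmoM2 is an active form of Smoothened, the membrane protein that starts the Hedgehog signal inside the cell. All mice were 4 to 5 weeks old and received doxycycline from day 1 after wounding until 3 days after re-epithelialization was complete, when the dermis was collected and Tomato+ cells were sorted. Each condition was 1 library that pooled the wounds of several mice, so no difference between libraries has a replicate check, and every interval below is a 95% interval that covers counting error only.

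A cell that divides first copies its DNA in S phase, where licensing factors such as the Mcm helicase open the origins and enzymes of nucleotide supply feed the polymerases. It then enters mitosis under cyclin B and Cdk1, and the anaphase-promoting complex with Cdc20 and the ubiquitin-conjugating enzyme Ube2c ends mitosis by destroying cyclin B. Fibroblasts divide while a wound fills with new tissue. The Hedgehog pathway acts through the receptor Ptch1, which holds Smoothened inactive until a ligand binds, and through the transcription factors Gli1, Gli2 and Gli3. Ptch1, Gli1 and Hhip are transcribed where the pathway is active and serve as its usual readout.

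Many mitotic genes have a known promoter signature, a CCAAT box followed by a cell cycle genes homology region (CHR). Through it they are held silent outside G2 and mitosis, and the genes that chose the cells were searched for it. RefSeq promoter sequences of build GRCm38.p6 were matched for 7 of the 8 genes, and Ccna2 had no entry. The 120 bases that end just before the transcription start are shown for the 5 genes that held both motifs, 5′ to 3′ on the strand of the gene. These motifs are shared by those 5 and not by all the selecting genes. Capitals mark CCAAT or its reverse ATTGG and the CHR letters TTTGAA or TTTAAA, or the reverse TTCAAA.
Ccnb1 at chr13:100786487-100786606, minus strand: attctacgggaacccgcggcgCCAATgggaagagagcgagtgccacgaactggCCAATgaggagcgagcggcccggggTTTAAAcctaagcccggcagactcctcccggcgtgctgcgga
Cdc20 at chr4:118437344-118437463, minus strand: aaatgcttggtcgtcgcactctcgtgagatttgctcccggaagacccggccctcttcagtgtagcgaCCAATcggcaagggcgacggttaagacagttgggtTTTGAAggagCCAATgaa
Cdk1 at chr10:69352913-69353032, minus strand: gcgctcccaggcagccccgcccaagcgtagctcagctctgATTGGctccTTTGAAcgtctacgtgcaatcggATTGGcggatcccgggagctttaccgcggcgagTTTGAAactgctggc
Top2a at chr11:99024190-99024309, minus strand: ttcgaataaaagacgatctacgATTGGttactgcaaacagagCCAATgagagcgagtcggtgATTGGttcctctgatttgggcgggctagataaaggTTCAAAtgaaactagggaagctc
Ube2c at chr2:164769809-164769928, plus strand: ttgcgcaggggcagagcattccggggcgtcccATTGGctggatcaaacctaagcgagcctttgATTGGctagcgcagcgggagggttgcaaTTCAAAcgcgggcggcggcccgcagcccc
In the whole 250 bases before the start, Birc5 had a CHR match only, 220 bases before the start, and Nusap1 had neither. Of all 32851 promoters, over the same 250 bases, 33.8% held a CCAAT box on either strand, 25.2% a CHR and 8.78% both. Among 59 promoters of the mitotic genes described below the shares were 72.9%, 45.8% and 40.7%. Among 41 promoters of the S phase genes they were 58.5% and 14.6% for the single motifs, and 17.1% held an E2F motif (TTTCCCGC or TTTGGCGC), which 1.3% of all promoters held. These letter matches are descriptions and the binding of a factor was not measured.

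The control library held 2878 barcodes with 30208318 UMIs and the SM22-SmoM2 library 1802 with 17863317. Cycling cells were deep, with a median of 13996 UMIs (4276 to 54087) in control and 12651.5 (3354 to 35622) in SM22-SmoM2, against 9027 and 9885 in non-cycling fibroblasts. The barcode list in the deposit held 737280 sequences and was not tied to the cells, so barcodes shared by both libraries were not counted. A doublet caller marked 6 of 2856 control and 10 of 1792 SM22-SmoM2 cells and no cycling fibroblast. Xist, which marks female cells, and Y-linked transcripts were found together in 143 of these control and 45 of these SM22-SmoM2 cells. Among them were 5 control and 2 SM22-SmoM2 cycling fibroblasts, so the absence of doublet calls does not exclude mixed barcodes there. Whether these cells were doublets or held free RNA was not tested.

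The label was checked on genes that the rule did not use, and its median levels held for only some of the cells. In 42 of the 132 control cycling cells (31.8%) and 29 of the 128 SM22-SmoM2 cycling cells (22.7%), the Schwann cell genes Mbp, S100b, Cdh19, Egfl8, Cadm4 and Gfra3 together were above 5 per 10000 UMIs. Mbp encodes a myelin protein, and the others mark the glia of peripheral nerve. The share was 32.1% in control non-cycling cells and 16.8% in SM22-SmoM2 non-cycling cells, so the same admixture ran through the cells the rule takes as fibroblasts. In the cycling cells with Schwann markers the collagen and decorin transcripts Col1a1, Col1a2, Col3a1 and Dcn had a median of 48.5 per 10000 UMIs in control and 61.2 in SM22-SmoM2. In the cycling cells without them the medians were 539 (90 cells, 85.0 to 1235) and 276 (99 cells, 42.8 to 1514), so single cells without Schwann markers were also low, and the label was held by the medians and not by every cell. The marker genes and the split were chosen after their levels in cells low in collagen had been seen, so this contrast is a description. All values below are for the cells as the rule takes them, and the main results are also given without the Schwann-marker cells.

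Cycling cells made up 8.36% of control fibroblasts (132 of 1579, exact binomial interval 7.04 to 9.84%) and 11.7% of SM22-SmoM2 fibroblasts (128 of 1090, 9.89 to 13.8%). Without Schwann-marker cells the shares were 8.40% (90 of 1072, 6.80 to 10.2%) and 11% (99 of 899, 9.04 to 13.2%), and these intervals overlap. With every cell thinned to 5000 UMIs they were 7.67% and 10.7%. The gap depended on which cells counted as fibroblasts. Where fibroblasts were instead required to have 200 collagen and decorin UMIs per 10000 and no Schwann markers, the shares were 8.87% (97 of 1093, 7.26 to 10.7%) and 9.07% (70 of 772, 7.14 to 11.3%). The collagen and decorin genes were themselves lower in the SM22-SmoM2 cycling cells. In Tomato+ cells outside the fibroblast rule the share with at least 4 of the 8 genes was 5.56% (71 of 1277) and 8.12% (57 of 702), and in endothelial cells among them it was 3.88% (28 of 722) and 3.5% (10 of 286).

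**Figure D1:**
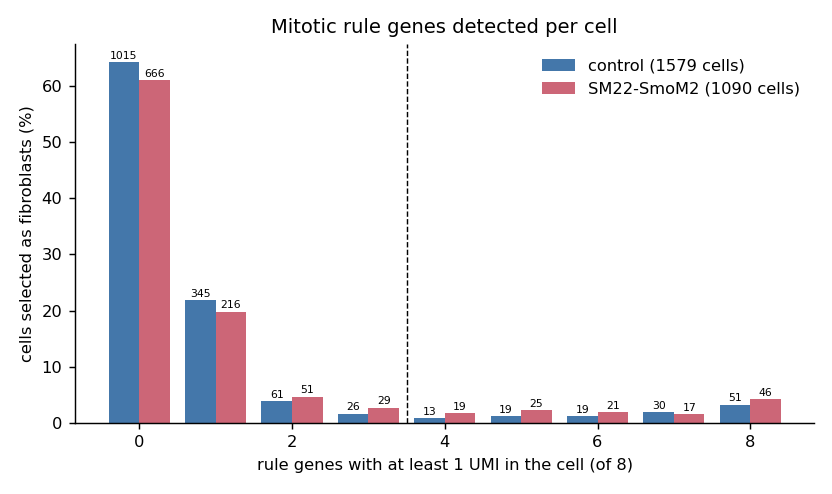
Fibroblasts of each library by the number of the 8 selecting genes with at least 1 UMI, as a percentage of that library's fibroblasts (y axis), with the number of cells on each bar and a dashed line at the threshold of 4 genes. Most cells had none of the 8 genes, few had 3 or 4, and 51 control and 46 SM22-SmoM2 cells had all 8.

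In control the counts of cells fell to a low point at 4 selecting genes and had a second peak at 8. Of the control fibroblasts, 1015 had none of the 8 genes, 345 had 1, 61 had 2 and 26 had 3. Above the threshold 13 cells had 4, 19 had 5, 19 had 6, 30 had 7 and 51 had all 8. In the SM22-SmoM2 library 666 cells had none, 216 had 1, 51 had 2 and 29 had 3. There 19 had 4, 25 had 5, 21 had 6, 17 had 7 and 46 had all 8. The lowest count was thus at 7, and no gap marked the threshold. The UMIs of the selecting genes in the cells beside the threshold follow from the rule. Control cells with 3 genes had a median of 4 UMIs over the 8 genes (3 to 14) and those with 4 had 9 (6 to 19). SM22-SmoM2 cells with 3 genes had a median of 4 (3 to 17) and those with 4 had 8 (4 to 15). Rrm2, a subunit of the enzyme that makes deoxynucleotides, stood at 53.0 counts per 1000000 UMIs (CPM) in the control cells with 3 genes and at 283 CPM in those with 4, and at 106 and 109 CPM in SM22-SmoM2. The proliferation marker Mki67 stood at 29.8 and 24.1 CPM in control and at 34.5 and 81.0 CPM in SM22-SmoM2.

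The selecting genes themselves are given as a description of what the rule took. Summed over cells, the 8 genes reached 2703 CPM in control cycling and 44.5 CPM in control non-cycling fibroblasts, and 2442 and 51.7 CPM in the SM22-SmoM2 library. Ube2c was the most abundant, at 629 CPM in control against 521 CPM in SM22-SmoM2 cycling cells, with a median of 5 and 3 UMIs per cell and at most 65 and 36. Birc5, which encodes survivin of the chromosomal passenger complex, was found in 96.2% and 97.7% of cycling cells, at 515 and 474 CPM. The mitotic kinase Cdk1 stood at 362 and 272 CPM, the cyclin Ccnb1 at 279 and 245 CPM, and Ccna2, the cyclin of S phase and G2, at 210 and 174 CPM. Cdc20, which directs the anaphase-promoting complex to its targets, stood at 298 and 237 CPM. Top2a, which untangles replicated chromosomes, stood at 261 CPM in control against 345 CPM in SM22-SmoM2. The spindle protein Nusap1 was the lowest of the 8, at 149 and 175 CPM, and was found in 68.2% and 72.7% of cells. None of the 8 genes differed by 2-fold between the cycling cells of both libraries, with log2 ratios of SM22-SmoM2 over control from -0.41 to 0.40.

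The other genes of mitosis followed the selecting genes in both libraries. A gene is called here when it differed by 2-fold or more and had at least 20 UMIs over both groups, and the contrast of cycling with non-cycling cells is the one the rule itself set up, so its counts describe the cells and support nothing. Over all genes, 5.84% were called higher and 8.1% lower in control cycling cells than in control non-cycling cells, and 6.67% and 6.81% in the SM22-SmoM2 library. The median log2 ratio over all genes was -0.06 in control and 0.01 in SM22-SmoM2. Of the mitotic kinases and cyclins, 13 of 13 were called higher in control and 13 of 13 in SM22-SmoM2, with median log2 ratios of 4.78 and 4.89. Aurkb, the kinase of the chromosomal passenger complex, stood at 94.8 CPM in control cycling and 1.20 CPM in control non-cycling cells, and at 99.4 and 1.10 CPM in SM22-SmoM2. Plk1, a kinase of mitotic entry and centrosome maturation, stood at 66.5 and 0.803 CPM in control and at 63.0 and 1.51 CPM in SM22-SmoM2.

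Kinetochore, spindle and chromosome genes stood in the same direction. Of the kinetochore and checkpoint genes, 19 of 19 were called higher in each library, with medians of 4.72 in control and 4.52 in SM22-SmoM2. Cenpa, the histone variant that marks centromeres, stood at 514 against 20.7 CPM in control and at 389 against 21.2 CPM in SM22-SmoM2. Pttg1, the securin that holds sister chromatids together until anaphase, stood at 207 against 53.6 CPM in control and at 349 against 47.9 CPM in SM22-SmoM2. Of the spindle motors and cytokinesis genes, 25 of 25 were called in each library, with medians of 5.31 and 4.88. The spindle motor Kif11 stood at 50.7 against 0.468 CPM in control and at 47.1 against 0.301 CPM in SM22-SmoM2. Of the mitotic chromosome genes, 12 of 12 were called in each library, with medians of 2.98 and 3.26. The chromatin protein Hmgb2 stood at 632 against 79.1 CPM in control and at 925 against 95.6 CPM in SM22-SmoM2, and Mki67, which coats mitotic chromosomes, at 101 against 2.88 CPM and 120 against 3.51 CPM.

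Genes of DNA replication were also higher in cycling cells, by smaller ratios than the mitotic genes. Of the origin licensing genes, 15 of 15 tested were called in control with a median log2 ratio of 1.94, and 13 of 15 in SM22-SmoM2 with a median of 1.77. The exceptions in SM22-SmoM2 were the licensing factor Cdt1 at 0.90 and Gins1, of the replicative helicase, at 0.97. Mcm6 stood at 85.1 against 15.5 CPM in control and at 71.0 against 21.0 CPM in SM22-SmoM2. Of the genes of DNA synthesis and nucleotide supply, 23 of 26 were called in control with a median of 2.36, and 25 of 26 in SM22-SmoM2 with a median of 2.14. Rrm2 stood at 205 against 9.5 CPM in control and at 170 against 14.4 CPM in SM22-SmoM2, and the polymerase clamp Pcna at 113 against 44.3 CPM and 126 against 59.4 CPM. Ung, the glycosylase that removes uracil from DNA, was called in neither library, with 0.58 in control and -0.20 in SM22-SmoM2.

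Single cells differed in where they stood in the cycle. After thinning to 5000 UMIs, which left out 2 control and 4 SM22-SmoM2 cycling cells, a cycling cell had a median of 7.5 of the 42 S phase genes in control (0 to 28) and 8 in SM22-SmoM2 (0 to 24). It had a median of 28 of the 69 mitotic genes in control (8 to 48) and 27 in SM22-SmoM2 (5 to 50). Non-cycling cells had medians of 2 S phase genes in both libraries and of 6 and 7 mitotic genes. The rule left cells with replication transcripts among the non-cycling cells, since 51 control (4.23%) and 45 SM22-SmoM2 non-cycling cells (5.69%) reached the S phase median of the cycling cells, whereas 2 and 1 reached the mitotic median. Control cycling cells with Schwann markers had a median of 12 S phase genes and those without had 6. In SM22-SmoM2 these medians were 7 and 8.

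**Figure D2:**
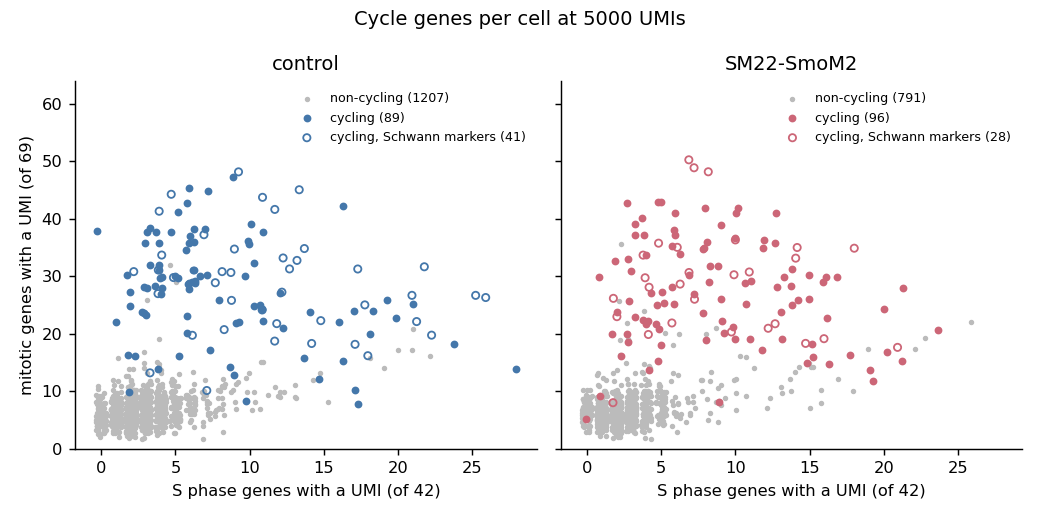
Number of S phase genes (of 42, x axis) and mitotic genes (of 69, y axis) with a UMI in each cell after thinning to 5000 UMIs, one panel per library, with points jittered for display. Grey points are non-cycling cells (1207 control, 791 SM22-SmoM2), filled points are cycling cells without Schwann markers (89 and 96) and open circles are cycling cells with them (41 and 28). Cycling cells spread along the S phase axis and lie above nearly all grey points on the mitotic axis.

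Mki67, which the rule did not use, was found after thinning in 41.5% of control and 37.9% of SM22-SmoM2 cycling cells. It was found in 1.49% and 1.64% of non-cycling cells and in 3.76% and 3.96% of endothelial cells, the measure here for RNA that is free in the droplets or for division in another cell type. Between libraries the cycling cells carried Mki67 at 101 CPM in control against 120 CPM in SM22-SmoM2, a log2 ratio of 0.25 (-0.03 to 0.53).

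Genes that act before S phase were split. Of 13 G1 cyclin and E2F genes tested in control, 6 were called higher and 1 lower in cycling cells, against 5.84% and 8.1% of all genes. Their median log2 ratio was 0.30. Of 12 in SM22-SmoM2, 4 were called higher and 1 lower, against 6.67% and 6.81% of all genes, with a median of 0.61. The E2F repressor E2f8 was higher by 5.12 in control (11.6 against 0.334 CPM) and by 4.42 in SM22-SmoM2 (19.3 against 0.903 CPM). The cyclin Ccnd2, which starts the cycle in response to growth signals, was lower, at 76.7 against 201 CPM in control and 77.8 against 215 CPM in SM22-SmoM2. Its relative Ccnd1 stood at 61.8 against 67.4 CPM in control and 85.2 against 61.2 CPM in SM22-SmoM2 and was called in neither. After thinning, Ccnd1 was found in 63.4% of control cycling cells with Schwann markers and in 6.74% of those without. In SM22-SmoM2 these shares were 53.6% and 18.8%.

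Most inhibitors of the cycle were not called. Of 14 such genes, 4 were called higher and 1 lower in control cycling cells, against 5.84% and 8.1% of all genes. In SM22-SmoM2 3 were called higher and 1 lower, against 6.67% and 6.81% of all genes, so the lower calls were near the share over all genes. The medians were 0.25 and 0.09. Cdkn2c and Cdkn2d, inhibitors of Cdk4 and Cdk6, were higher: Cdkn2c stood at 221 against 52.0 CPM in control and 168 against 31.3 CPM in SM22-SmoM2, and Cdkn2d at 189 against 30.8 CPM and 130 against 28.9 CPM. The retinoblastoma relative Rbl1 was higher by 2.16 in control and 2.33 in SM22-SmoM2. Cdkn1c, known as p57, stood at 138 against 236 CPM in control and at 90.3 against 203 CPM in SM22-SmoM2, and passed the 2-fold line only in SM22-SmoM2. The p53 target Cdkn1a stood at 188 against 170 CPM in control and at 296 against 343 CPM in SM22-SmoM2.

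Gene groups outside the cycle are given as a description of the cycling cells. Of 10 nucleolar genes, which serve ribosome production, 1 was lower in control and 1 higher in SM22-SmoM2, with medians of 0.12 and 0.08. These calls were near the shares over all genes, 8.1% lower in control and 6.67% higher in SM22-SmoM2. Of 13 immediate early genes, which respond quickly to stimuli, none passed the 2-fold line in either library, with medians of -0.19 and -0.35. The 23 matrix genes had medians of -0.22 and -0.41, with 1 called lower in control and 2 in SM22-SmoM2, against 8.1% and 6.81% of all genes. The most marked of them was Eln, the gene of elastin, which stood at 63.7 CPM in cycling and 265 CPM in non-cycling control cells, and at 13.6 and 54.4 CPM in SM22-SmoM2.

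Outside the 8 selecting genes, the largest ratios included Kif2c, a microtubule-destabilising protein of mitosis, Hmmr, a spindle protein, and Esco2, which joins sister chromatids. Among genes that stood in the same direction in both libraries, the 8 highest in control were Depdc1a, Fam64a, Kif2c, Neil3, Spc25, Prr11, Pbk and Sapcd2. In SM22-SmoM2 they were Kif11, Fam64a, Aurkb, Esco2, Cdc25c, Hmmr, Kif2c and Depdc1a. Among 11619 genes tested in both libraries, 646 were called higher with cycling in control and 766 in SM22-SmoM2, and 488 in both, which was 75.5% of the first list and 63.7% of the second. Fewer of the lower genes were shared, 243 of 821 in control (29.6%) and of 761 in SM22-SmoM2 (31.9%). Over all genes tested in each library, 5.84% were called higher and 8.1% lower in control, and 6.67% and 6.81% in SM22-SmoM2. The shared parts of the higher and of the lower genes both lay above these shares. The 8 lowest in control were Sfrp5, Mlana, Mmp13, C1qa, Tbxa2r, Wif1, Epyc and P2rx6, and those in SM22-SmoM2 were C1qc, Sfrp5, Ms4a7, Fam198a, Zfp949, Vtn, Asgr2 and Procr. Most had 1 UMI in the cycling cells of that library, so intervals were wide (-8.78 to -0.92 for Asgr2). Since a 0 was set to 3 UMIs, genes with 0 ranked as less low than genes with 1. In control, C1qc with 0 UMIs stood at -1.98 and C1qa with 1 at -3.92, so the order does not measure how low they were. C1qa, C1qc and Ms4a7 are macrophage genes, and Mlana is a pigment cell gene. Without Schwann-marker cells 6.41% of genes were called higher and 8.67% lower in control, and 7.01% and 7.32% in SM22-SmoM2.

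**Figure D3:**
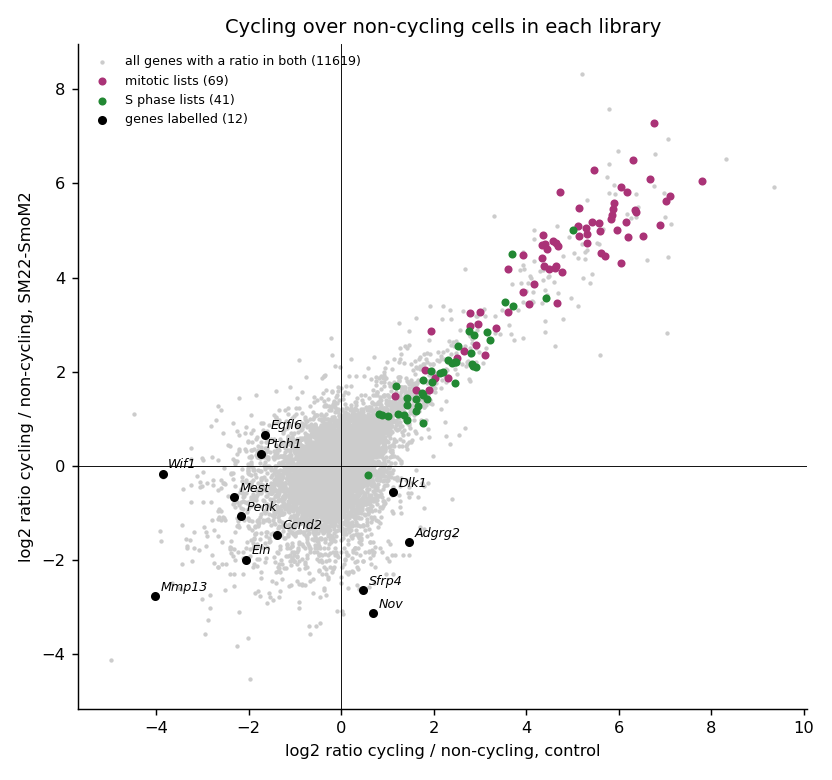
Log2 ratio of cycling over non-cycling fibroblasts in control (x axis) and in SM22-SmoM2 (y axis) for the 11619 genes tested in both, with 69 mitotic and 41 S phase genes in colour and 12 genes labelled. The mitotic genes lie far along the diagonal and the S phase genes nearer its centre, while Nov and Sfrp4 lie above 0 in control and below 0 in SM22-SmoM2. The control value of Wif1 is a bound, because no UMI was counted in the cycling cells.

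The comparison of SM22-SmoM2 with control inside the cycling cells was not used by the rule. Among 9689 genes tested, 4.65% were higher and 5.26% lower by 2-fold or more in SM22-SmoM2 cycling cells, and without Schwann-marker cells 6.21% and 7.14%. The median log2 ratio over all genes was -0.05. The genes of the cycle were close to that median. No mitotic kinase, kinetochore, spindle or chromosome gene reached the 2-fold line, with medians of -0.17, -0.03, -0.10 and 0.19. The licensing genes had a median of -0.07 and the DNA synthesis genes of -0.13. Ung was the exception among the latter, at -1.19 (-2.05 to -0.38). Within the mitotic lists the ratios ran from -0.52 for Espl1, the separase, to 0.75 for Pttg1, its inhibitor. Of the 12 G1 genes tested, the growth-promoting factor Mycn was called, at 1.04 on 22 and 37 UMIs, and of the 14 inhibitors Cdkn2a. These counts moved with the Schwann-marker cells. Without them Mycn was at 3.07 on 3 and 21 UMIs, Ccnd1 was also called higher at 1.43 and the cyclin Ccne1 lower at -1.10. Cdkn1a at 1.10 joined Cdkn2a among the inhibitors, and Chaf1b at -1.07 joined Ung at -2.10 among the DNA synthesis genes.

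Cdkn2a, whose products p16 and p19Arf restrain cell division, was among the genes that differed between the libraries in cycling and in non-cycling cells. It stood at 34.4 CPM in control against 71.0 CPM in SM22-SmoM2 cycling cells, a log2 ratio of 1.05 (0.62 to 1.48). In non-cycling cells it stood at 26.4 and 106 CPM, a log2 ratio of 2.01. Within SM22-SmoM2 it was therefore lower in cycling than in non-cycling cells, by a log2 ratio of -0.58, and in control it was at 0.38.

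**Figure D4:**
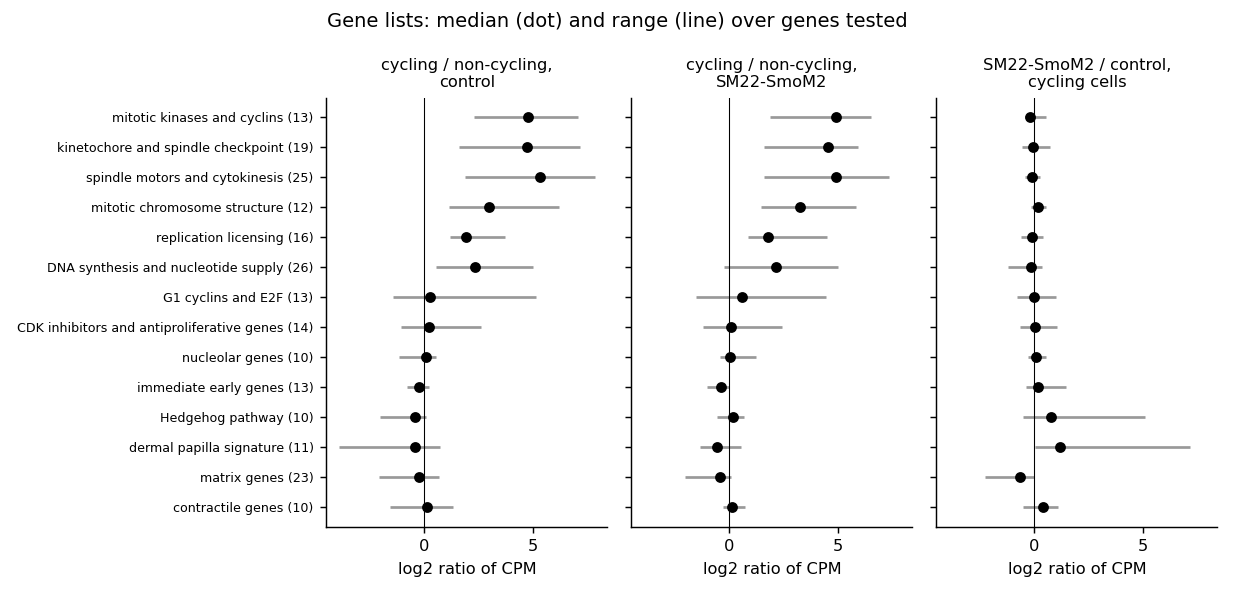
Median log2 ratio (dot) and range over the genes tested (line) for 14 gene lists, with the size of each list in brackets, in 3 panels: cycling over non-cycling in control, the same in SM22-SmoM2, and SM22-SmoM2 over control in cycling cells. The cell cycle lists lie to the right in the first and second panels and near 0 in the third, where the Hedgehog list (median 0.81), the dermal papilla list (1.21) and the matrix list (-0.61) depart from 0.

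Hedgehog transcripts were scarce in control cycling cells and abundant in SM22-SmoM2 cycling cells. Ptch1, Gli1 and Gli2 together had 16 UMIs in the 132 control cycling cells, or 7.44 CPM (4.25 to 12.1), and 319 UMIs in the 128 SM22-SmoM2 cycling cells, or 181 CPM (162 to 202). This was a 24.4-fold difference (14.8 to 43.1), and without Schwann-marker cells it was 28.0-fold (16.2 to 53.3). In non-cycling cells the same sum was 22.9 CPM in control against 158 CPM in SM22-SmoM2, a 6.90-fold difference (6.14 to 7.78). Endothelial cells, which passed the same Tomato sort, had 15.0 and 49.6 CPM, so the control cycling level lay below that of another cell type in its own library. SM22-SmoM2 cycling cells with Schwann markers had 44.3 CPM (24.8 to 73.0).

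The receptor Ptch1 (chr13:63508328-63573598, minus strand, build GRCm38) carried most of this signal. It was found in 7 of 132 control cycling cells, with at most 3 UMIs in a cell, and in 74 of 128 SM22-SmoM2 cycling cells, with at most 14. Its level was 4.18 CPM in control against 143 CPM in SM22-SmoM2, a log2 ratio of 5.10 (4.15 to 6.24). In non-cycling cells it stood at 13.9 and 120 CPM. Gli1 (chr10:127329882-127341974, minus strand), the transcription factor that amplifies the signal, had 3 UMIs in control and 42 in SM22-SmoM2 cycling cells, a log2 ratio of 4.10 (2.45 to 6.43). Hhip, which binds and withdraws Hedgehog ligands, had 0 and 41 UMIs and was at least 16.7-fold higher with the control set to 3 UMIs. Gli2 had 4 and 25 UMIs, a log2 ratio of 2.93 (1.40 to 4.92).

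The rest of the pathway stood below the 2-fold line in cycling cells, so that 4 of the 10 genes of the list were called higher, against 4.65% of all genes, and the median was 0.81. With a minimum of 50 UMIs, which leaves out the scarcer genes, the list median was -0.15. The coreceptor Gas1 was the most abundant, at 233 CPM in control against 210 CPM in SM22-SmoM2. The log2 ratios were 0.66 for the coreceptor Boc, -0.50 for the coreceptor Cdon, 0.75 for Gli3 and 0.87 for the inhibitor Sufu. Smo stood at 48.8 and 38.1 CPM, and these counts do not separate transcripts of the SmoM2 allele from those of the endogenous gene.

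After thinning to 5000 UMIs, a UMI of any of Ptch1, Gli1 and Gli2 was found in 2.31% of control cycling cells (3 of 130) and in 50.8% of SM22-SmoM2 cycling cells (63 of 124). It was found in 9.03% of control and 42.6% of SM22-SmoM2 non-cycling cells. The shares in endothelial cells were 7.35% (exact interval 5.41 to 9.72%) in control and 13.9% in SM22-SmoM2. The control cycling share (0.48 to 6.60%) was lower than the endothelial share of its library, but these intervals overlap. The SM22-SmoM2 cycling share lay above the endothelial share of its library. Read the other way, 3 of the 112 control fibroblasts with such a UMI were cycling (2.68%, exact interval 0.556 to 7.63%), against 10.4% of the 1225 without. In SM22-SmoM2, 63 of the 400 with such a UMI were cycling (15.8%, 12.3 to 19.7%), against 61 of the 515 without (11.8%, 9.18 to 15.0%). Without Schwann-marker cells the SM22-SmoM2 shares were 14.9% (11.5 to 18.8%) and 9.16% (6.56 to 12.4%), and the control shares 1.14% and 9.58%. This split into cells with and without a UMI of these genes was made after the values were seen.

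Within the SM22-SmoM2 cycling cells free of Schwann markers and deep enough to thin, the 58 cells with a UMI of these genes and the 38 without one were at a like point of the cycle. Their medians were 9 and 7.5 S phase genes and 27 and 25.5 mitotic genes. They differed in matrix transcripts: Col1a1, Col1a2, Col3a1 and Dcn had a median of 230.0 per 10000 UMIs in the cells with such a UMI and 566 in those without.

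Genes of the dermal papilla, the fibroblast condensate at the base of the hair follicle, stood mostly higher in SM22-SmoM2 cycling cells. The list came from earlier work on these data and is not independent evidence of its direction. Of the 10 genes tested, 6 were higher by 2-fold or more, against 4.65% of all genes, and the median was 1.21. Without Schwann-marker cells it was 8 of 9, against 6.21% of all genes, with a median of 2.09. Sema6a, a semaphorin, stood at 3.25 CPM in control against 25.6 CPM in SM22-SmoM2, the growth factor Bmp3 at 10.2 and 36.4 CPM, and the chemokine receptor Cxcr4 at 2.79 and 11.9 CPM. Hey1, a target of Notch signalling, stood at 16.7 and 26.1 CPM and was not called. Compared with their own non-cycling cells, the SM22-SmoM2 cycling cells had 2 of 11 dermal papilla genes lower, against 6.81% of all genes, with a median of -0.55. A related list of genes of a Hedgehog-active cell group, also from earlier work, had 6 of 11 lower in the same contrast, with a median of -1.04. Of its members, Smoc1 had 1 UMI in cycling and 51 UMIs in non-cycling SM22-SmoM2 cells, and Sox18 had 12 and 101. These groups held 1760513 and 9966400 UMIs in all. Scaled to these totals, Smoc1 had a log2 ratio of -3.17, the lowest of the list, and Sox18 did not pass the 2-fold line. Against non-cycling cells at least as deep as the median cycling cell the median of the dermal papilla list was 0.02, and in control it went from -0.38 to 0.29.

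The member of the dermal papilla list with the largest ratio was Wif1 (chr10:121033960-121100650, plus strand), which encodes a secreted Wnt inhibitor. No UMI was counted in the 132 control cycling cells, which allows at most 1.39 CPM by the limit of 3 UMIs, whereas 341 UMIs lay in 54 of the 128 SM22-SmoM2 cycling cells. With the control set to 3 UMIs it was at least 139-fold higher, and the highest cell held 44 UMIs or 12.9% of the total. In non-cycling cells it stood at 20.2 CPM in control against 217 CPM in SM22-SmoM2. After thinning it was found in none of 130 control cells, which allows a share of up to 2.31% by the limit of 3 cells, and in 32.3% of SM22-SmoM2 cycling cells, and in 0.163% and 5.94% of endothelial cells.

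Egfl6 (chrX:166523007-166585720, minus strand), an extracellular matrix protein of the hair follicle niche, had 3 UMIs in control (1.39 CPM) and 284 in SM22-SmoM2 cycling cells (161 CPM), a log2 ratio of 6.85 (5.29 to 9.14). These UMIs lay in 31 of the 128 SM22-SmoM2 cells. Penk (chr4:4133531-4138819, minus strand), the enkephalin precursor, stood at 11.6 and 483 CPM and was found in 15 of 132 and 74 of 128 cells. In non-cycling cells Penk stood at 51.9 and 1012 CPM. Mest (chr6:30723547-30748465, plus strand), an imprinted gene of mesenchymal development, stood at 33.5 and 559 CPM, the interferon-induced membrane protein Ifitm1 at 4.65 and 90.9 CPM, the leptin receptor Lepr at 5.11 and 71.0 CPM and the iron exporter Slc40a1 at 3.25 and 42.6 CPM. Mest was found after thinning in 10.0% of control and 33.1% of SM22-SmoM2 cycling cells and in 28.8% and 29.2% of endothelial cells. Its control cycling share thus lay below the endothelial share, and its SM22-SmoM2 cycling share was near it. Whether the endothelial UMIs were free RNA or transcripts of those cells was not tested.

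The genes with the largest ratios in the other direction were abundant in control cycling cells. Nov (chr15:54745702-54754039, plus strand), a matricellular CCN protein, stood at 302 CPM in control against 3.41 CPM in SM22-SmoM2 cycling cells, a log2 ratio of -6.47. Sfrp4 (chr13:19623104-19632994, plus strand), a secreted inhibitor of Wnt signalling, stood at 207 and 3.98 CPM, a log2 ratio of -5.70. Dlk1 (chr12:109452823-109463336, plus strand), a membrane relative of the Notch ligands, stood at 1085 and 46.6 CPM, and Pamr1 (chr2:102550012-102643041, plus strand), a secreted protein with a protease-like domain, at 272 and 11.9 CPM. Adgrg2, an adhesion receptor, stood at 59.5 CPM in control against 2 UMIs in SM22-SmoM2, a log2 ratio of -5.71 (-8.77 to -3.83). The ferritin receptor Scara5 had 36.7 CPM in control and 2 UMIs in SM22-SmoM2, a log2 ratio of -5.01 (-8.09 to -3.11). The prostaglandin enzyme Ptgs1 had 3 UMIs in SM22-SmoM2, at -5.14 (-7.43 to -3.56), and the mitochondrial protein Efhd1 stood at -4.70 on 127 and 4 UMIs and, without Schwann-marker cells, at -6.69 on 124 and 1.

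These genes were spread over many control cells. After thinning, Nov and Sfrp4 were each found in 36.2% of control and 0.806% of SM22-SmoM2 cycling cells, and Dlk1 and Pamr1 each in 43.8% of control and in 8.87% and 7.26% of SM22-SmoM2 cycling cells. In endothelial cells Nov was found in 8.17% and 5.45% and Dlk1 in 7.19% and 12.9%, so the SM22-SmoM2 cycling shares of both lay below the endothelial shares of that library. Without Schwann-marker cells, the 8 genes with the largest ratios were Wif1, Egfl6, Ptch1, Penk, Cd24a, Mest, Ifitm1 and Col11a1 on the higher side. On the lower side they were Efhd1, Nov, Ptgs1, Adgrg2, Sfrp4, Scara5, Cxcl5 and Pamr1.

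**Figure D5:**
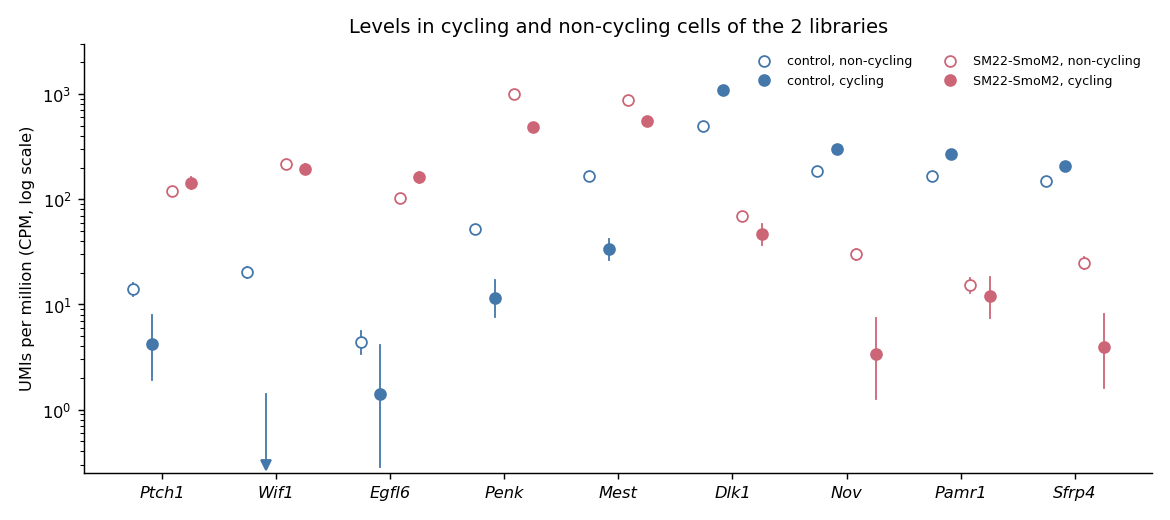
Level in CPM (log axis) of 9 genes in control and SM22-SmoM2 cycling and non-cycling fibroblasts, with exact Poisson 95% intervals over the summed UMIs of each group, and a triangle for 0 UMIs with a line up to 1.39 CPM, the level of 3 UMIs. Ptch1, Wif1, Egfl6, Penk and Mest are higher in SM22-SmoM2, and Dlk1, Nov, Pamr1 and Sfrp4 in control. The gap is wider in cycling than in non-cycling cells for each of the 9 genes, with the control of Wif1 set to 3 UMIs. The 9 genes were drawn from those with the largest ratios in cycling cells, and that choice favours a smaller gap in non-cycling cells. Lepr, which ranked among the same genes and is not drawn, had its wider gap in non-cycling cells.

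The difference between the libraries was not the same size in cycling as in non-cycling cells. Nov stood at 187 CPM in control against 30.0 CPM in SM22-SmoM2 non-cycling cells, so its log2 ratio in cycling cells was lower by 3.83 (-5.01 to -2.66 by counting error). Within control, Nov was higher in cycling than in non-cycling cells by 0.70 on the log2 scale, and within SM22-SmoM2 it was at -3.14. Sfrp4 was at 0.48 and -2.64, and Scara5 at 0.60 and -2.57. For the sum of Ptch1, Gli1 and Gli2 the corresponding values were -1.62 (-2.44 to -0.90) in control and 0.20 (0.02 to 0.37) in SM22-SmoM2, and for Egfl6 -1.64 and 0.66. Other genes that ranked here rested on single cells. In control cycling cells 443 of 475 Spp1 UMIs came from 1 cell (93.3%), and 96 of 156 Cxcl5 UMIs (61.5%). In SM22-SmoM2 cycling cells 23 of 42 Cul9 UMIs came from 1 cell (54.8%). Nebl, Slc35f1 and Reln, which ranked among the higher genes, did not rank without the Schwann-marker cells.

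Several matrix genes were lower in SM22-SmoM2 cycling cells. Of the 23 genes of the list, 7 were lower by 2-fold or more, against 5.26% of all genes, and the median was -0.61. The summed level was 81222 CPM in control against 54799 CPM in SM22-SmoM2 cycling cells, and 98966 and 74790 CPM in non-cycling cells. Eln had a log2 ratio of -2.22. Fibronectin (Fn1) stood at 1669 and 392 CPM, fibrillin (Fbn1) at 715 and 226 CPM and decorin (Dcn) at 5017 and 1725 CPM. The elastin crosslinker Loxl1 had a log2 ratio of -1.61, the metalloproteinase inhibitor Timp1 of -1.42 and the collagenase Mmp2 of -1.11. These genes stood at -2.24 for Eln, -2.15 for Fn1 and -1.55 for Dcn without Schwann-marker cells. Col1a1, the most abundant collagen, stood at 14615 and 11536 CPM. Of the 5 genes of the fibroblast rule, which chose the cells in both libraries, Dpt stood at 1204 and 253 CPM and Lum at 2507 and 1076 CPM, while Pdgfra stood at 62.8 and 112 CPM.

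Of 8 contractile genes tested, Tagln, the gene of the driving promoter, was called, at 79.5 CPM in control against 173 CPM in SM22-SmoM2 cycling cells, a log2 ratio of 1.12 (0.84 to 1.40). Without Schwann-marker cells the smooth muscle actin Actg2 was called as well, at 1.17. Acta2, the smooth muscle actin of myofibroblasts, stood at 256 and 183 CPM. Of 13 immediate early genes, Fosb at 1.28 and Nr4a1 at 1.5 were called higher, and none of 9 nucleolar genes was called, with a median of 0.13. The share called higher over all genes in this contrast was 4.65%.

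Markers of other cells were present at low levels and moved with some results. Immune markers summed to 146 CPM in control against 33.5 CPM in SM22-SmoM2 cycling cells, and to 186 and 137 CPM in non-cycling cells. Of the 7 markers 3 could be tested, and these 3 were lower by 2-fold or more in SM22-SmoM2 cycling cells, against 5.26% of all genes. They were the antigen presentation genes Cd74 (73.0 and 10.2 CPM) and H2-Aa (44.2 and 3.98 CPM) and the macrophage lysozyme Lyz2 (20.5 and 10.2 CPM). Without Schwann-marker cells 2 of 3 were lower by 2-fold, against 7.14% of all genes, and the other stood at -0.94. Ptprc, Pecam1, Rgs5 and Sox10 were held low by the rule itself, so their levels check nothing. Endothelial markers summed to 51.1 and 39.8 CPM, mural cell markers to 45.6 and 30.7 CPM and keratinocyte markers to 53.9 and 52.3 CPM, with Myh11 and Krt5 at 0 in both. Schwann markers with Sox10 summed to 321 and 271 CPM, and to 24.0 and 35.2 CPM without the cells that carried them. Y-linked transcripts without Xist were found in 73.6% of control cycling cells that could be assigned (81 of 110) and in 88.3% of SM22-SmoM2 cycling cells (91 of 103), so the share of male cells differed between the libraries. In male cells alone the cycling shares were 9.27% and 12.1%, and the log2 ratio of Ptch1, Gli1 and Gli2 summed was 5.30. There the medians were 1.19 for the dermal papilla list and -0.50 for the matrix list. The part of the immune, endothelial, mural and keratinocyte markers in the results above was not tested.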

How the data were processed

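Per the labels and the study's methods, single cells were captured with 10x 3′ chemistry, and the authors used bcl2fastq and Cell Ranger with mm10 to make the deposited matrices of whole-number UMI counts, 1 for each of 2 libraries (versions not given in the sources used here). No column of another sample was present. UMI counts were summed over the cells of a group and scaled to counts per 1000000 UMIs (CPM). Ratios were log2 ratios of CPM with exact conditional binomial intervals, levels had exact Poisson intervals and shares exact Clopper-Pearson intervals. With 1 library per condition there was no test. A count of 0 was set to 3 UMIs, and no ratio was formed where both counts were 3 or fewer. Genes needed 20 UMIs over both groups. Endothelial cells (outside the fibroblast rule, at least 3 UMIs of Pecam1, Cdh5 and Kdr) gave the comparison for free RNA. Their own transcripts were not told apart from it. Thinning drew 5000 UMIs per cell.

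The genes named are those of 22 fixed lists and, with at least 50 UMIs, the 8 highest and 8 lowest of each comparison and of the difference between cycling and non-cycling cells, without mitochondrial, ribosomal, sex-linked marker and unnamed gene models. Cycling ranks had to point the same way in both libraries. One gene that met the rule and some marker genes are not reported here. The members and lists were chosen with earlier results of these data known. The Schwann marker genes and split, the collagen definition, the endothelial definition, the split by Hedgehog UMIs and the promoter motifs were chosen after the values were seen. Doublets were called with Scrublet (scanpy 1.11.5) and none was removed. The ratio and its interval were checked on simulated counts with 200 changed genes. Python 3.11.15, numpy 2.4.6, scipy 1.17.1, pandas 2.3.3 and matplotlib 3.10.9 were used. Gene coordinates are those of the GRCm38 annotation, matched by gene ID.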

Additional observations from a re-analysis of the deposited data

Results flagged for a closer look

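Several genes stood on opposite sides of 0 in the log2 ratio of cycling over non-cycling fibroblasts, and because each library was 1 sample none of these differences was tested. Ptch1, Gli1 and Gli2 summed were at -1.62 in control and 0.20 in SM22-SmoM2. Egfl6 was at -1.64 and 0.66, Cul9 at -1.33 and 1.19, Slc35f1 at -0.98 and 1.24, and Reln at -1.19 and 0.96. In the other direction Nov was at 0.70 and -3.14, Sfrp4 at 0.48 and -2.64, Scara5 at 0.60 and -2.57, Duoxa1 at 1.07 and -1.67, Cxcl5 at 1.80 and -1.34, and Spp1 at 2.41 and -0.70. Most UMIs of Spp1, Cxcl5 and Cul9 in their higher cycling group came from 1 cell each, and Slc35f1 and Reln left the ranking without Schwann-marker cells.

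Cells outside the fibroblast rule also held at least 4 of the 8 selecting genes, in 5.56% of control and 8.12% of SM22-SmoM2 cells.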

How the results depend on the processing

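Results were recomputed, where a setting bears on them, under 13 listed settings and 4 added after the data were seen. Of 74 gene counts under the listed settings, 67 lay within 1.5 times the reported count, and all 24 under the added ones. With 3 selecting genes in place of 4, cycling shares were 10.01% in control and 14.4% in SM22-SmoM2, and with the collagen definition, added after the data were seen, the SM22-SmoM2 share was 9.07%. The log2 ratio of summed Ptch1, Gli1 and Gli2 ran from 4.25 to 5.81, the latter after thinning. The count of genes higher in SM22-SmoM2 cycling cells was 451 as reported, 217 after thinning, 211 with a 50-UMI minimum and 1006 with no minimum. The count of lower genes was 510 as reported, and 305 and 960 with these minimums. With the 50-UMI minimum 655 genes were lower with cycling in control in place of 1009, and 483 in SM22-SmoM2 in place of 802, since fewer genes were tested. Thinning also took genes below the minimum. Of 272 list medians under the listed settings 98 lay outside the counting interval set around the reported median, and 15 had another sign. Of 96 under the added settings, 58 lay outside that interval and 12 had another sign. No paired analysis was possible because each condition was 1 library, and for the same reason no replicate could be left out. Depth limits scarce genes: 3 UMIs are 1.39 CPM in control cycling cells and 1.7 CPM in those of SM22-SmoM2.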
